A study of Homo sapiens with 12 samples.

Results

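PNRC1, TOB1, TOB2, BTG1, BTG3, ZFP36, ZFP36L1 and ZFP36L2 are 8 genes whose proteins steer the decay of messenger RNA, and their transcripts were followed in SW13 cells with and without BRG1 after UV irradiation. The set took in every probe set that the platform annotation gives to 1 of these symbols alone, which is 22 of the 54613 probe sets on the array that are not controls, and 19 of the 22 passed the filter on dim signals that left 32622 probe sets for testing. The genes were selected on measured signals of these same 12 arrays, and which comparison weighed in the choice is not recorded. All values of the 8 genes in all 5 comparisons are therefore given as a description of the set, and their calls are no independent evidence. SW13 is a line from a human adrenal cortical carcinoma that lacks BRG1, the ATPase of the SWI/SNF chromatin remodeling complex that the gene SMARCA4 encodes. The groups were SW13+BRG1 cells (stable line with pREP7 carrying BRG1) after UV at 10 J/m2, SW13+BRG1 cells after mock treatment, SW13+vector cells (stable line with pREP7 alone) after the same dose of UV, and SW13+vector cells after mock treatment, each as 3 arrays. Every culture was collected 6 h after its treatment. The arrays of a group are biological repeats of the same stable line, 1 line with the vector and 1 with BRG1, so the tests measure the spread within a line, and an effect of BRG1 and other differences between these lines cannot be told apart.

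Most messenger RNAs are taken apart from their tail. The CCR4-NOT complex shortens the poly(A) tail, the DCP1 and DCP2 proteins then remove the cap, and nucleases finish the decay from either end. TOB1 and TOB2 bring CCR4-NOT to the poly(A)-binding protein, and BTG1 and BTG3 belong to the same family of proteins that hold cells back from dividing. ZFP36 (tristetraprolin), ZFP36L1 and ZFP36L2 are zinc finger proteins that bind AU-rich elements in short-lived messages, cytokine and early response messages among them, and recruit CCR4-NOT to them. PNRC1 is a nuclear receptor coactivator whose protein can bind decapping factors, and PNRC2 is its relative in decapping.

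The promoters of the 4 genes with the clearest differences between groups are shown first, as the 250 bases before the start of each gene in RefSeq (GRCh38.p14). A promoter of this kind was found for 7 of the 8 genes, all but ZFP36L2. PNRC1 lies at chr6:89080501-89080750 (plus strand), TOB1 at chr17:50866355-50866604, BTG1 at chr12:92145847-92146096 and ZFP36L1 at chr14:68793417-68793666 (minus strand for these). They are written 5′ to 3′ on the strand of the gene. Capitals mark CCAAT boxes, the cyclic AMP response element TGACGTCA or its core TGACG, and the TATA box TATAAA, searched on both strands.
PNRC1: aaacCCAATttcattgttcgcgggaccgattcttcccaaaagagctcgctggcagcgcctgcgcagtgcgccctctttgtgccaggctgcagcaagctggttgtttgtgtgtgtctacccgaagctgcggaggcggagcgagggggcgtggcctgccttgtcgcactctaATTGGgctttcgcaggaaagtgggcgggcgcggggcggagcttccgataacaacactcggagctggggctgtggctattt
TOB1: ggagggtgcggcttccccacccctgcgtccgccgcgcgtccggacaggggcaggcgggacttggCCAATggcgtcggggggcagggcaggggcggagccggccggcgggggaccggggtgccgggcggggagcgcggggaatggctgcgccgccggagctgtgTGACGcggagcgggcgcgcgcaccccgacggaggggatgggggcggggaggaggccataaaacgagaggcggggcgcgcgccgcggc
BTG1: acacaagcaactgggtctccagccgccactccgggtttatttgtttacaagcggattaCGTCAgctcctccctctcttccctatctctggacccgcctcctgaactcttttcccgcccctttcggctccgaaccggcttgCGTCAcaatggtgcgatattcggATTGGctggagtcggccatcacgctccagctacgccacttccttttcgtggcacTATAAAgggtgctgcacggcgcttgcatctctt
ZFP36L1: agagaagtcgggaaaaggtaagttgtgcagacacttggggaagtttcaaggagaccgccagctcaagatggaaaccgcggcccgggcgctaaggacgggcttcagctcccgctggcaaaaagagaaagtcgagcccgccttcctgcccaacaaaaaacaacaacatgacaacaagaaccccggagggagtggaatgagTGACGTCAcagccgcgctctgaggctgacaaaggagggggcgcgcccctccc
The full response element TGACGTCA, to which CREB and ATF proteins can bind, was found at -52 to -45 of ZFP36L1 alone among the 7, and in 1.65% of all 35116 promoters of this length. The core TGACG, which that element contains on both strands, was present in 3 of the 7 (TOB1, BTG1 and ZFP36L1), against 21.2% of all promoters. CCAAT stood in TOB1, BTG1 and PNRC1 (32% of all promoters), at 2 places in PNRC1, and TATAAA stood at -33 to -28 of BTG1 alone (10.7%). The AP-1 site TGANTCA (6.57% of all promoters) and the CArG box (1.16%) were found in none of the 7. The GC box GGGCGG, left in lower case, was found in 6 of the 7 and in 42.6% of all promoters. The promoter of TOB1 had a GC content of 80.4%, against 60.8% for PNRC1, 58.4% for ZFP36L1, 56.4% for BTG1 and a median of 58% over all promoters. These are matches of letters, and binding was not measured.

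The deposited values are MAS signals, a linear measure of brightness scaled to the same mean on each array, and signals are compared only within a probe set. Array medians were 21.1 to 25.3. Log2 signals correlated at 0.879 to 0.917 in the 12 pairs of arrays within groups and at 0.818 to 0.893 in the 54 pairs between groups. On array 3 of mock-treated SW13+vector cells the ratio of 3′ to 5′ signal was 2.57 for actin and 1.64 for GAPDH, against 1.21 to 1.62 and 0.93 to 1.25 on the other 11. The targeted gene SMARCA4 has 9 probe sets, of which 7 were tested. After UV and also without it, its mean with BRG1 was above that with the vector on 2 of the 7 and below it on 5. No source used here says whether these probe sets lie within the introduced copy, so they do not check the labels, and the lines are named as labelled. The brightest probe set averaged 213 in SW13+BRG1 and 539 in SW13+vector cells without UV and was called lower there (-1.28), but not after UV, where it averaged 229.9 and 520.2 (-1.22), while another averaged 148 in SW13+BRG1 and 34.4 in SW13+vector cells after UV. The study reports BRG1 protein in SW13+BRG1 cells on a Western blot, with no effect of UV on its level there. The blot is not part of these data. Of 6 adrenal cortex markers only 2 were bright enough for testing, and NR5A1, STAR, CYP11A1 and HSD3B2 were not. PTPRC, a leukocyte marker, averaged 6.77 in SW13+BRG1 and 118 in SW13+vector cells after UV, and 7.07 and 123 without UV. Of 4 leukocyte markers 3 have probe sets on the array, and only PTPRC was bright enough for testing. The dim CD3E averaged 25.8 in SW13+BRG1 and 4.63 in SW13+vector cells after UV, and 9.67 and 9.68 without UV. The dim CD14 averaged 2.96 and 13.9 after UV, and 7.50 and 2.15 without UV. The part of PTPRC in the differences between the lines was not tested. In RNA from whole cultures, fewer cells of a kind and less of a transcript per cell cannot be told apart.

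A probe set is called higher or lower here when limma gave an adjusted p under 0.05 (Benjamini-Hochberg, over all 32622 probe sets) and a fold change over 2. For the interaction, which is the UV effect in SW13+BRG1 minus that in SW13+vector cells, the adjusted p alone decides. Where groups are said not to overlap, this describes their 3 arrays each and is no test. The share of all probe sets that lie apart in this way was not counted. After UV in SW13+BRG1 cells, 1 of the 19 tested probe sets was called higher and 1 lower, with a background of 0.561% called higher and 5.81% called lower among all probe sets. After UV in SW13+vector cells 3 were called higher and 0 lower (background 0.665% and 3.6%). Between SW13+BRG1 and SW13+vector cells after UV, 3 were called higher and 2 lower (background 7.68% and 5.97%), and without UV 5 were called higher and 2 lower (background 7.69% and 4.3%). In the interaction 0 were called higher and 1 lower (background 0.0123% and 0.0368%). Nothing is read from these shares, because the genes were chosen with such results known. The median log2 change of the 19 was 0.05 after UV in SW13+BRG1 cells (-0.06 over all probe sets) and 0.23 after UV in SW13+vector cells (-0.01 over all). Between the lines it was -0.09 after UV (-0.06 over all) and 0.46 without UV (-0.00 over all), and for the interaction it was -0.55 (-0.03 over all). The spread was wide, as changes after UV in SW13+BRG1 cells ran from -2.81 for PNRC1 to 2.32 for a probe set of ZFP36L1.

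**Figure D1:**
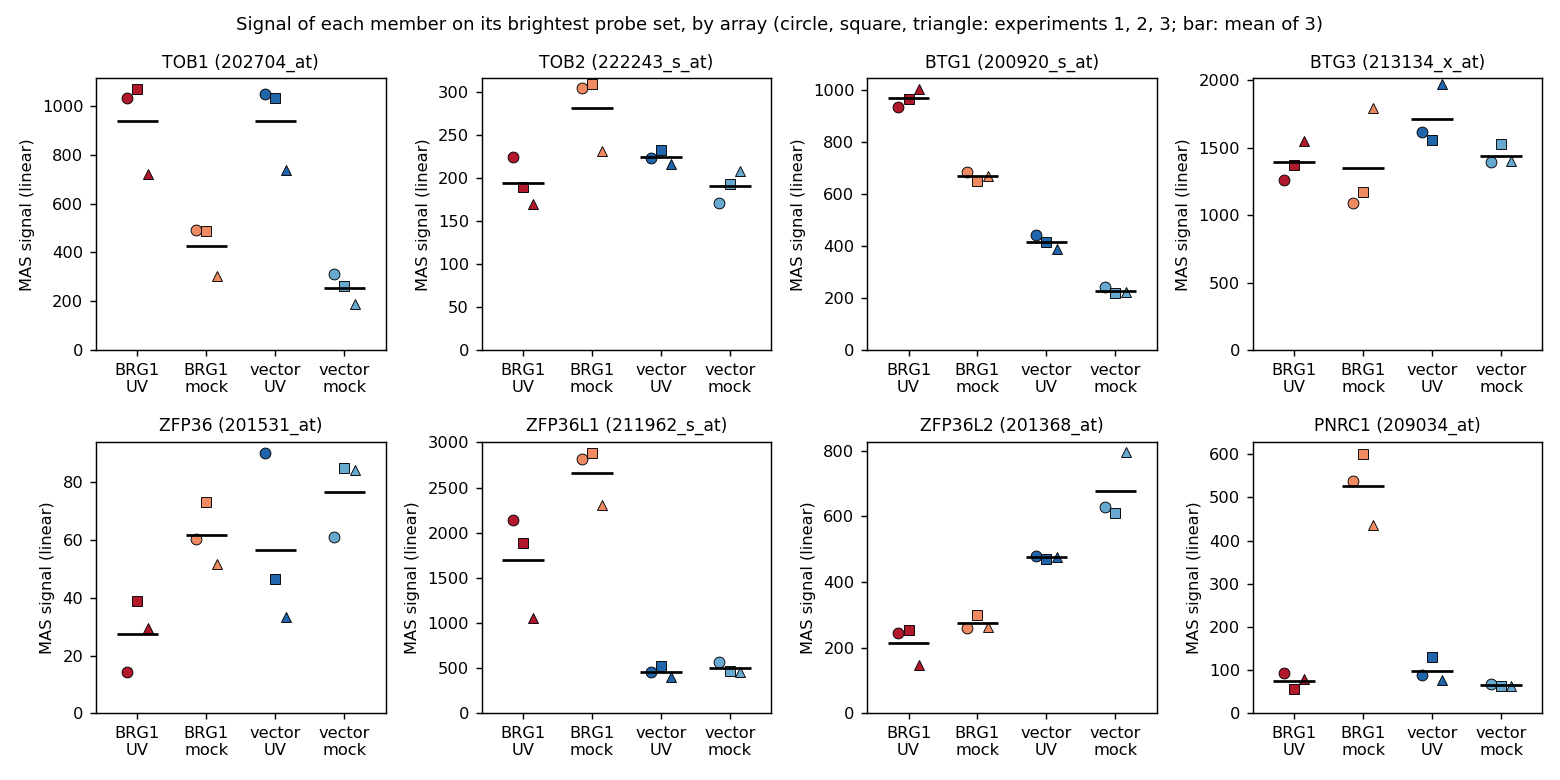
Signal (MAS, linear, from 0) of the brightest probe set of each gene on all 12 arrays, with SW13+BRG1 UV, SW13+BRG1 mock, SW13+vector UV and SW13+vector mock from left to right; each symbol is 1 array and each bar the mean of 3. PNRC1 stands out in mock-treated SW13+BRG1 cells (437 to 602, and at most 130 on the other 9 arrays), TOB1 is higher after UV in both lines, and BTG1, ZFP36L1 and ZFP36L2 separate mainly by line.

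PNRC1 was bright in 1 group only. Its single probe set (209034_at) gave signals of 93.5, 55.7 and 79.3 in UV-treated SW13+BRG1 cells, against 538, 602 and 437 in mock-treated SW13+BRG1 cells. Signals in SW13+vector cells were 88.1, 130 and 77.4 after UV, against 68.5, 64.6 and 64.4 after mock treatment. The mock-treated SW13+BRG1 arrays lay above all 9 others, and the groups compared overlapped only between the lines after UV. In SW13+BRG1 cells PNRC1 fell 6.99-fold after UV (log2 fold change -2.81, SE 0.25), with changes of -2.53, -3.43 and -2.46 between the arrays of experiments 1, 2 and 3. In SW13+vector cells the log2 change was 0.55 (SE 0.25), which is no call. The UV and mock arrays of that line did not overlap. Without UV the transcript was 7.92-fold higher with BRG1 than with the vector (2.98, SE 0.25), and after UV the difference was -0.37 (SE 0.25). The interaction was -3.35 (SE 0.35), and PNRC1 was the only one of the 8 genes called in it. Leaving out each array in turn moved the interaction between -3.52 and -3.13 and the UV change in SW13+BRG1 cells between -2.97 and -2.60, with every call kept. With Benjamini-Hochberg adjustment, the methods' t-test gave 0.0641 for the UV change in SW13+BRG1 cells, and it called 5 probe sets higher and 87 lower over the whole array in that comparison.

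TOB1, which links the deadenylase complex to the poly(A)-binding protein, was higher after UV in both lines. Its brighter probe set (202704_at) gave 1031, 1069 and 720 in UV-treated SW13+BRG1 cells, against 492, 489 and 303 in mock-treated ones. Signals in SW13+vector cells were 1051, 1031 and 737 after UV, against 313, 264 and 188 after mock treatment. The UV and mock arrays did not overlap in either line, and the array of experiment 3 was the lowest of each group. TOB1 rose 3.72-fold in SW13+vector cells (log2 1.89, SE 0.24), with 1.75, 1.97 and 1.97 by experiment. In SW13+BRG1 cells it rose 2.22-fold (1.15, SE 0.24), with 1.07, 1.13 and 1.25 by experiment. After UV the lines had nearly the same mean signal, 940.3 ± 192 in SW13+BRG1 and 939.6 ± 176 in SW13+vector cells (SD, n = 3 each). Without UV it averaged 428 ± 108 in SW13+BRG1 and 255 ± 63.2 in SW13+vector cells, a log2 difference of 0.74 (SE 0.24) that stayed under the 2-fold limit. The interaction was -0.75 (SE 0.34) and was not called. It was called with the arrays of experiment 3 left out (-0.76), and the UV change was smaller in SW13+BRG1 cells in each of the 3 experiments.

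The second TOB1 probe set (228834_at) gave 568, 561 and 579 in UV-treated SW13+BRG1 cells, against 302, 307 and 171 after mock treatment. The SW13+vector arrays gave 662, 703 and 487 after UV, against 216, 192 and 56.5 after mock treatment. Again no UV array overlapped a mock array of its line. It was called in SW13+vector cells (2.20, SE 0.40) and not in SW13+BRG1 cells (1.18, SE 0.40). The value of 56.5 came from the array with the high 3′ to 5′ ratios, and without that array the unchanged value of 1.18 in SW13+BRG1 cells was called. It was also called with the experiment number as a replicate block (SE 0.28). The call of TOB1 in SW13+BRG1 cells was near its limits. It was lost without the mock-treated SW13+BRG1 array 3, where the change was 0.92. It was also lost when arrays were scaled to the hybridization controls (0.76, SE 0.27), which moved the median change of all probe sets to -0.45 in SW13+BRG1 and -0.27 in SW13+vector cells. TOB1 in SW13+vector cells stayed called under that scaling at 1.63.

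TOB2, the close relative of TOB1, was not called in any comparison. Its brightest probe set (222243_s_at) gave 225, 190 and 170 in UV-treated SW13+BRG1 cells, against 305, 309 and 231 after mock treatment. The SW13+vector arrays gave 224, 233 and 216 after UV, against 171, 193 and 209 after mock treatment. The arrays of each line did not overlap, and the log2 changes pointed to opposite sides, -0.53 (SE 0.17) in SW13+BRG1 and 0.24 (SE 0.17) in SW13+vector cells. The interaction of -0.77 (SE 0.24) was not called. A second probe set (221496_s_at) gave -0.49 and 0.06 in the same order of lines. The last (234720_s_at) was dim, with group means of 13.7 to 28.1, and had values of 1.72 (SE 0.93) and -0.59 (SE 0.93).

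**Figure D2:**
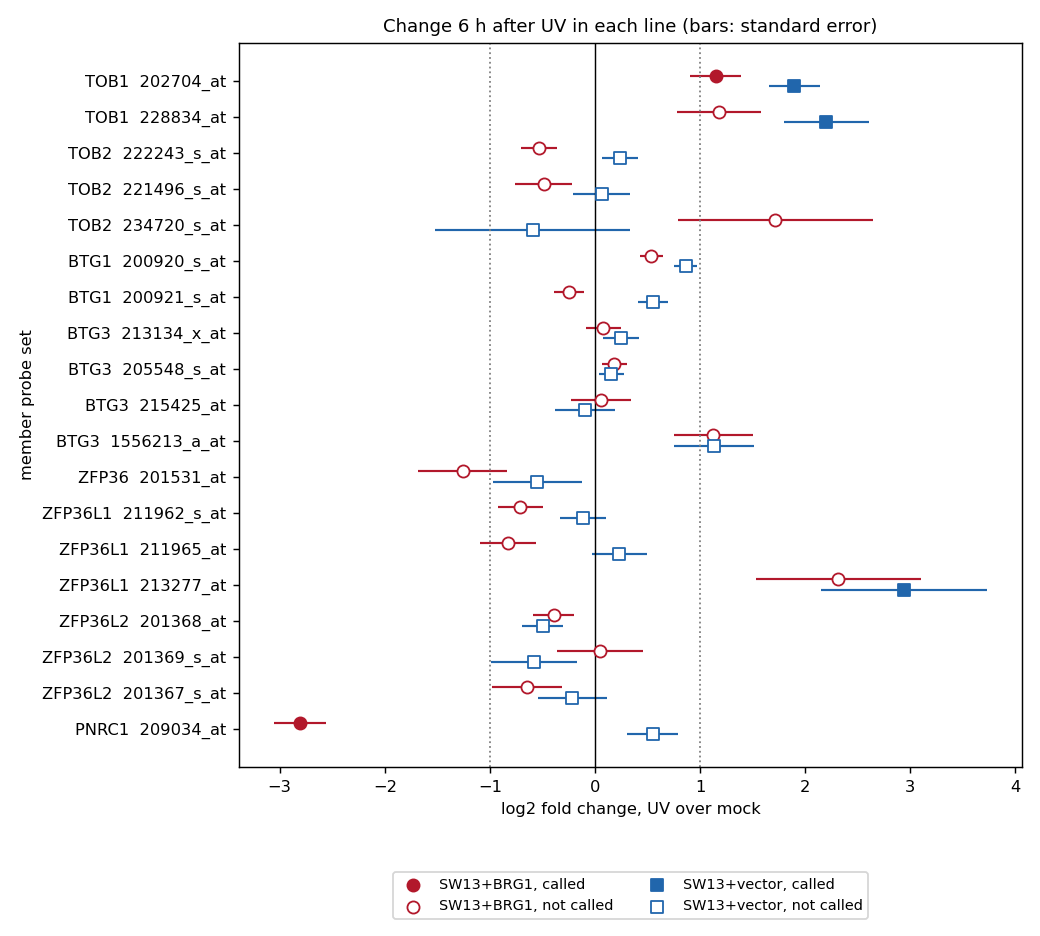
Log2 fold change of UV over mock for the 19 tested probe sets, with SW13+BRG1 cells as circles and SW13+vector cells as squares, filled where called; bars are standard errors and dotted lines mark a 2-fold change. TOB1 lies right of 0 in both lines, PNRC1 lies at -2.81 in SW13+BRG1 cells and at 0.55 in SW13+vector cells, and the probe sets of ZFP36L1 point to both sides.

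BTG1, an antiproliferative protein that binds the deadenylase subunits CNOT7 and CNOT8, differed mostly by line. Its brightest probe set (200920_s_at) gave 935, 966 and 1007 in UV-treated SW13+BRG1 cells, against 444, 414 and 391 in UV-treated SW13+vector cells. Without UV it gave 686, 650 and 671 in SW13+BRG1 cells, against 242, 221 and 223 in SW13+vector cells. The 4 groups did not overlap at all, in the order of UV-treated SW13+BRG1, mock-treated SW13+BRG1, UV-treated SW13+vector and mock-treated SW13+vector cells. BTG1 was 2.33-fold higher with BRG1 than with the vector after UV (1.22, SE 0.11) and 2.93-fold higher without UV (1.55, SE 0.11). Its UV changes of 0.54 in SW13+BRG1 and 0.86 in SW13+vector cells (SE 0.11 each) stayed under 2-fold and were not called.

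The second BTG1 probe set (200921_s_at) repeated the difference between the lines but not the UV change. It gave 425, 405 and 425 in UV-treated SW13+BRG1 cells, against 475, 442 and 581 after mock treatment. In SW13+vector cells it gave 221, 216 and 236 after UV, against 157, 165 and 137 after mock treatment. The UV arrays thus lay below the mock arrays in SW13+BRG1 cells (-0.24, SE 0.14) and above them in SW13+vector cells (0.55, SE 0.14). Between the lines it was called without UV (1.70, SE 0.14) and fell short of 2-fold after UV (0.90, SE 0.14). The last probe set (1559975_at), with group means of 4.86 to 9.12, was too dim for testing.

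BTG3, of the same family, moved little on its bright probe sets. The brightest (213134_x_at) had means of 1395 ± 148 and 1349 ± 387 in SW13+BRG1 cells after UV and after mock treatment, and 1714 ± 222 and 1439 ± 73.4 in SW13+vector cells (SD, n = 3 each). A second (205548_s_at) was lower on the SW13+BRG1 arrays than on the SW13+vector arrays of the same treatment, with no overlap, by -0.31 after UV and -0.34 without UV on the log2 scale, and was not called. Another (215425_at) had changes between -0.21 and 0.06 over the comparisons of groups. The dimmest (1556213_a_at) stood apart from these. It gave 67.1, 97.0 and 49.0 in UV-treated SW13+BRG1 cells, against 30.7, 36.4 and 27.5 after mock treatment, and 52.4, 85.4 and 45.3 in UV-treated SW13+vector cells, against 36.4, 17.9 and 29.6 after mock treatment. The arrays did not overlap in either line, and the change was 1.13 (SE 0.38) in both, which did not pass the adjusted threshold. With the experiment number as a replicate block the change was called in both lines (1.13, SE 0.37 in each).

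ZFP36, the founder of the AU-rich element binders, was dim, with signals from 14.5 to 90.2 on its single probe set (201531_at). It gave 14.5, 39.0 and 29.4 in UV-treated SW13+BRG1 cells, against 60.2, 73.2 and 51.7 after mock treatment. In SW13+vector cells it gave 90.2, 46.4 and 33.3 after UV, against 61.1, 84.8 and 84.2 after mock treatment. The arrays of SW13+BRG1 cells did not overlap and those of SW13+vector cells did. The log2 changes were -1.26 and -0.55 (SE 0.42 each), and neither was called. By experiment they ran -2.06, -0.91 and -0.81 in SW13+BRG1 cells, and 0.56, -0.87 and -1.34 in SW13+vector cells, so that 1 SW13+vector experiment pointed the other way. The change in SW13+BRG1 cells was called without the UV-treated SW13+BRG1 array 2 (-1.56), without the UV-treated SW13+vector array 1 (-1.26) and with the arrays of experiment 3 left out (-1.48). Between the lines the differences were -1.02 (SE 0.42) after UV and -0.31 without UV, and that after UV was called without the UV-treated SW13+vector array 3 (-1.34).

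ZFP36L1 was higher with BRG1 than with the vector on 2 of its probe sets. The brightest (211962_s_at) gave 2142, 1891 and 1055 in UV-treated SW13+BRG1 cells, against 461, 524 and 406 in UV-treated SW13+vector cells. Without UV it gave 2812, 2884 and 2302 in SW13+BRG1 cells, against 569, 470 and 464 in SW13+vector cells. Every SW13+BRG1 array lay above every SW13+vector array, 3.52-fold on average after UV (1.82, SE 0.22) and 5.32-fold without UV (2.41, SE 0.22). The second (211965_at) showed 3.63-fold (1.86, SE 0.26) and 7.56-fold (2.92, SE 0.26). Within SW13+BRG1 cells the UV arrays lay below the mock arrays on both, by -0.71 (SE 0.22) and -0.83 (SE 0.26), under the 2-fold limit. In SW13+vector cells the UV changes were -0.11 and 0.23. With arrays scaled to the hybridization controls the UV changes of ZFP36 (-1.65) and of the brightest ZFP36L1 probe set (-1.10) in SW13+BRG1 cells were called lower.

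Another ZFP36L1 probe set (213277_at) behaved otherwise. It gave 136, 121 and 64.4 in UV-treated SW13+BRG1 cells, against 41.4, 34.4 and 5.99 after mock treatment. The SW13+vector arrays gave 72.7, 114 and 34.2 after UV, against 7.0, 23.5 and 3.82 after mock treatment. The UV arrays lay above the mock arrays in both lines, with log2 changes of 2.32 (SE 0.79) in SW13+BRG1 cells, not called, and 2.94 (SE 0.79) in SW13+vector cells, called. That call was lost without any one of 4 SW13+vector arrays (UV 1 or 2, mock 1 or 3), with changes of 2.36 to 2.87. The value in SW13+BRG1 cells, 2.32 throughout, was called without the mock-treated SW13+vector array 2 or 3, and with the replicate block (SE 0.47). The mock signals include values well below the array medians, and experiment 3 was lowest in all 4 groups. Averaged over the 3 tested probe sets, ZFP36L1 had UV changes of 0.26 in SW13+BRG1 and 1.02 in SW13+vector cells, so the sign of its UV change depended on the probe set. No source used here says which parts of the gene these probe sets cover. The last (213284_at) was too dim for testing.

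**Figure D3:**
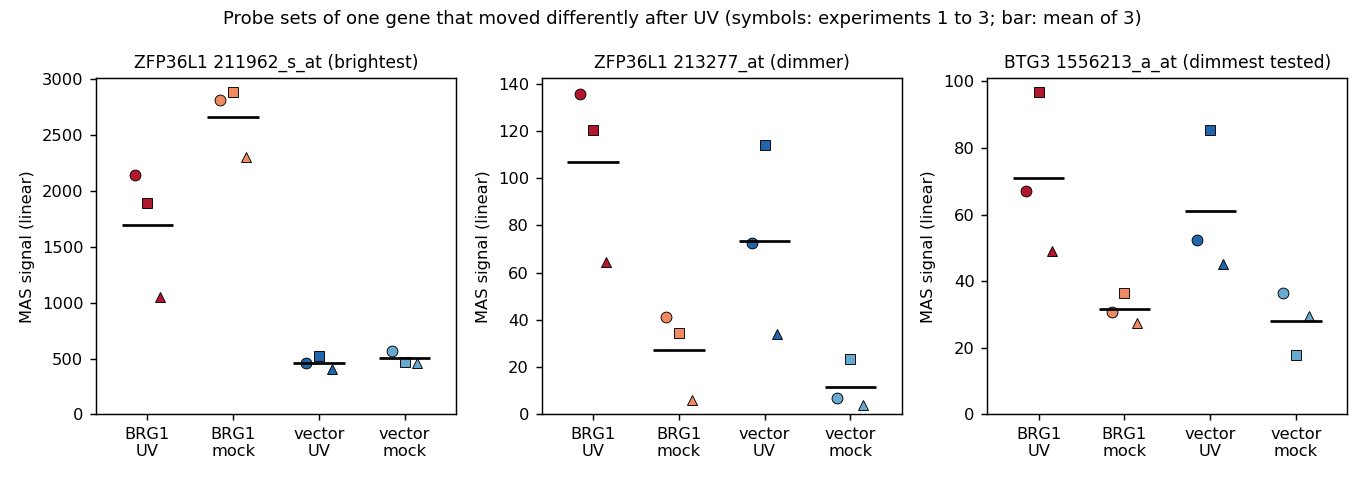
Signal (MAS, linear, from 0) on 12 arrays for the brightest and a dimmer probe set of ZFP36L1 and for the dimmest tested probe set of BTG3; symbols are arrays of experiments 1 to 3, bars are means of 3, and the panels have their own axes. On 211962_s_at the UV arrays lie below the mock arrays in SW13+BRG1 cells, and on 213277_at and 1556213_a_at they lie above the mock arrays in both lines.

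ZFP36L2 ran opposite to ZFP36L1 between the lines. Its brightest probe set (201368_at) gave 243, 253 and 147 in UV-treated SW13+BRG1 cells, against 480, 471 and 477 in UV-treated SW13+vector cells. Without UV it gave 259, 300.3 and 263 in SW13+BRG1 cells, against 628, 610.1 and 795 in SW13+vector cells. The lines did not overlap, and ZFP36L2 was lower in SW13+BRG1 cells with log2 differences of -1.19 after UV and -1.30 without UV (SE 0.19 each). Within each line the UV arrays also lay below the mock arrays, by -0.39 and -0.50 (SE 0.19 each), with no call. Of its other tested probe sets, 201367_s_at was called lower in SW13+BRG1 cells after UV (-1.20, SE 0.33) and 201369_s_at without UV (-1.23, SE 0.41). The first of these calls was lost without the UV-treated SW13+vector array 3 (-1.06). The second was lost in 9 of the 12 fits that left out an array (-1.37 to -0.80 in those 9) and held only without the UV-treated SW13+BRG1 array 1 or 2 or the mock-treated SW13+vector array 2. The last (227681_at) was too dim for testing. Without the UV-treated SW13+BRG1 array 3, which gave 147, the difference after UV was -0.94 and fell short of 2-fold.

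**Figure D4:**
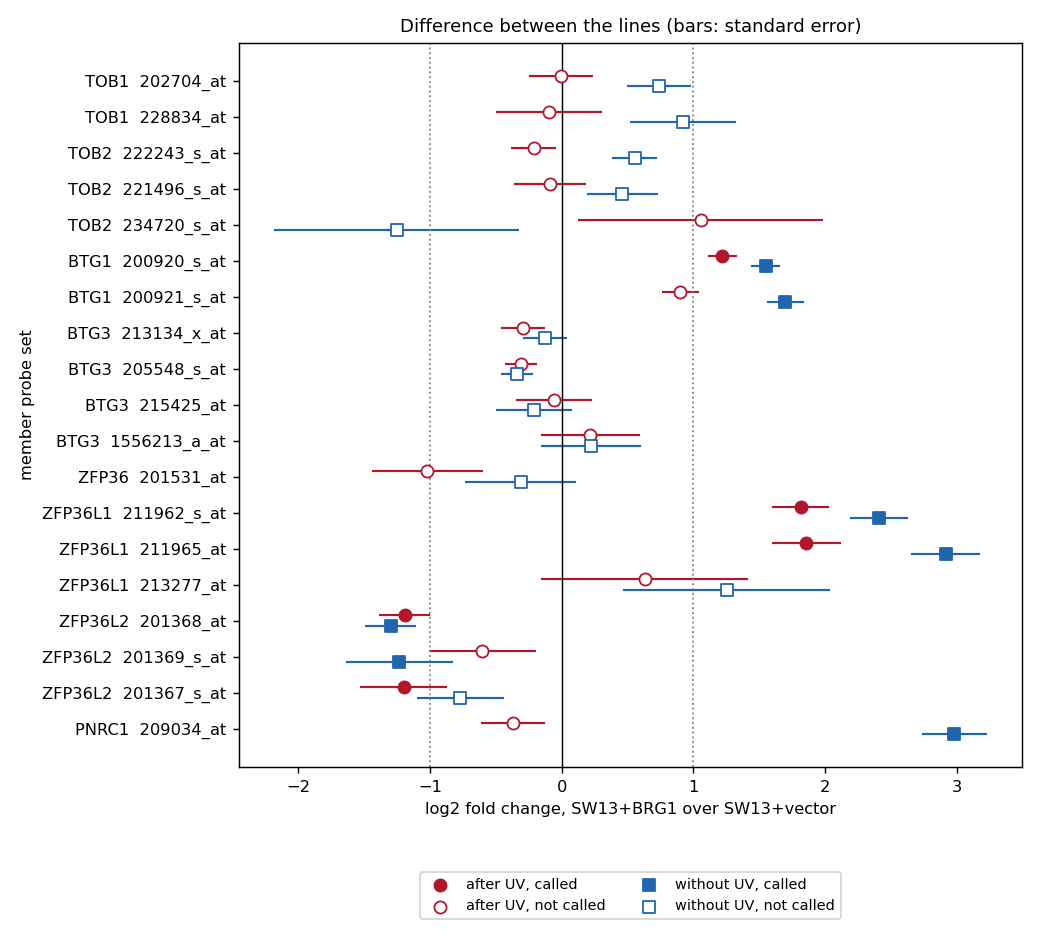
Log2 fold change of SW13+BRG1 over SW13+vector cells for the 19 tested probe sets, after UV (circles) and without UV (squares), filled where called; bars are standard errors and dotted lines mark a 2-fold difference. BTG1 and the 3 tested probe sets of ZFP36L1 lie right of 0 in both conditions, ZFP36L2 lies left of it, and PNRC1 lies at 2.98 without UV and at -0.37 after UV.

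The machinery on which these regulators act was examined on 1 brightest probe set per gene, as 13834 genes. Among all of them 0.535% were called higher and 6.27% lower after UV in SW13+BRG1 cells, and 0.528% and 3.93% in SW13+vector cells. Of 15 tested deadenylation genes, 0 were called higher and 3 lower in each line. These were CNOT6L, CNOT4 and CNOT2. CNOT6L, a catalytic subunit, had -1.81 in SW13+BRG1 and -1.12 in SW13+vector cells (SE 0.22 each). The CNOT4 ubiquitin ligase had -1.40 and -1.27 (SE 0.23 each), and the CCR4-NOT subunit CNOT2 had -1.11 and -1.16 (SE 0.14 each). Of the tested probe sets, 2 of 2 for CNOT2 and 1 of 5 for CNOT4 were called in each line, and the mean over the probe sets of CNOT4 was not called in either (-0.86 in SW13+BRG1 and -1.12 in SW13+vector cells). CNOT6L was called on 1 of 2 tested probe sets in SW13+BRG1 and on 2 of 2 in SW13+vector cells. Of 21 decapping genes 3 were called lower in each line. EIF4ENIF1, which carries the cap-binding protein eIF4E, had -1.5 in SW13+BRG1 and -1.35 in SW13+vector cells (SE 0.28 each). DCP1B had -1.14 and -1.42 (SE 0.33 each), and its call in SW13+BRG1 cells was lost without any one of the 6 arrays of that line (-1.23 to -1.07). The remaining call was PNRC2 in SW13+BRG1 cells (-1.40, SE 0.18) and DCP1A in SW13+vector cells (-1.26, SE 0.31), each on 1 of its 2 tested probe sets. The call of DCP1A in SW13+vector cells was lost without the arrays UV 1, UV 2 or mock 3 of that line (-1.14 to -1.06). In SW13+BRG1 cells the brightest probe set of DCP1A had -0.96 (SE 0.31), no call, and its other tested probe set was called lower.

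PNRC2, the relative of PNRC1 that joins the decay of faulty messages to decapping, averaged 579 ± 101 in UV-treated and 1523 ± 238 in mock-treated SW13+BRG1 cells. In SW13+vector cells it averaged 1273 ± 139.8 after UV and 1698 ± 341 after mock treatment (SD, n = 3 each), a change of -0.40 (SE 0.18) with no call. Its interaction of -0.99 (SE 0.25) was not called either (adjusted p = 0.458 in limma). Among 15 other RNA-binding regulators 4 were called lower in SW13+BRG1 and 3 in SW13+vector cells, and 0 higher in either. PUM2, a repressor that recruits CCR4-NOT, had -1.94 in SW13+BRG1 and -1.64 in SW13+vector cells (SE 0.17 each), on 2 of 2 tested probe sets. TNRC6A and TNRC6B, which join microRNA-loaded Argonaute proteins to deadenylation, had -1.88 (SE 0.18) and -1.85 (SE 0.31) in SW13+BRG1 cells, and -1.19 and -1.25 in SW13+vector cells. The last of these calls was lost without any one of 5 SW13+vector arrays, all but UV 1 (-1.33 to -1.01). TNRC6A was called lower on 2 of 6 tested probe sets in each line. TNRC6B was called lower on 5 of 7 in SW13+BRG1 and on 4 of 7 in SW13+vector cells. The Argonaute protein AGO4 was called in SW13+BRG1 cells alone (-1.44, SE 0.20), on 1 of its 2 tested probe sets and not as their mean (-0.60), and the difference of its UV changes, -0.74 (SE 0.28), was not called. The 15 exosome genes had 0 calls in either direction after UV.

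Between SW13+BRG1 and SW13+vector cells, 9.56% of all genes were called higher and 6.61% lower after UV, and 9.05% and 5.09% without UV. Of the deadenylation genes 0 were called in either direction in both conditions. DCP2, the decapping enzyme, was lower in SW13+BRG1 cells after UV (-1.95) and without UV (-1.31, SE 0.12 each), and its partner DCP1B was higher in both (2.46 and 2.18, SE 0.33 each). DCP1B averaged 20.2 in SW13+vector cells after UV, where it was dim, and with 16 added before log2 the differences were 1.75 and 1.88. DCP2 was called on 2 of its 4 tested probe sets, and their mean fell short of a call without UV (-0.97). The exosome subunits EXOSC2 (-1.10 and -1.02, SE 0.17 each) and EXOSC9 (-1.26 and -1.01, SE 0.18 each) were lower in SW13+BRG1 cells after UV and without UV. EXOSC2 was called on 1 of its 2 tested probe sets, and their mean stayed under 2-fold (-0.89 and -0.94). Without UV the call of EXOSC2 was lost without mock-treated SW13+BRG1 array 1 or 3 or SW13+vector array 1 or 2 (-0.99 to -0.92), and that of EXOSC9 without mock-treated SW13+BRG1 array 1 or SW13+vector array 3 (-0.96 to -0.84). PNRC2 was lower after UV (-1.14, SE 0.18), and LSM14B, a protein of decapping granules, was higher without UV (1.14, SE 0.27) on 1 of 5 tested probe sets, a call that was lost without the mock-treated SW13+vector array 3 (0.88) and as the mean over its probe sets (0.48). DUSP1, the phosphatase that restrains the p38 kinase pathway acting on ZFP36 proteins, was higher in SW13+BRG1 cells after UV (1.28) and without UV (1.70, SE 0.14 each). It was called on 1 of 3 tested probe sets after UV and on 2 of 3 without UV, and as their mean it was not called after UV (0.45). The other 2 tested genes of that pathway were not called.

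Of 16 known target messages of the ZFP36 proteins 9 were bright enough for testing. After UV, FOS was called higher in both lines, by 1.11 in SW13+BRG1 and 1.27 in SW13+vector cells (SE 0.25 each). CXCL8, the neutrophil chemokine, was called higher in SW13+BRG1 cells (1.71, SE 0.47), on 1 of its 2 tested probe sets. In SW13+vector cells it had 1.23 (SE 0.47), no call. MYC was called lower in SW13+vector cells (-1.33, SE 0.20) and had -0.76 (SE 0.20), no call, in SW13+BRG1 cells. The interactions of CXCL8 (0.48, SE 0.67) and MYC (0.57, SE 0.29) were not called. IER3, an early response gene of cell survival, averaged 303 ± 27.9 in UV-treated and 879.8 ± 110 in mock-treated SW13+BRG1 cells, against 128 ± 16.3 in UV-treated and 84.3 ± 10.4 in mock-treated SW13+vector cells (SD, n = 3 each). It fell after UV in SW13+BRG1 cells (-1.54, SE 0.17) and had 0.61 (SE 0.17), no call, in SW13+vector cells. Its interaction of -2.14 (SE 0.23) was called (adjusted p = 0.00413 in limma), in a comparison that called 0.0145% of all genes higher and 0.0506% lower. Between the lines IER3 was higher in SW13+BRG1 cells after UV (1.24) and without UV (3.38, SE 0.17 each). CXCL8 (2.91 and 2.43, SE 0.47 each) and LIF, a cytokine (2.12 and 3.24, SE 0.52 each), were also called higher after UV and without UV, and FOS was lower (-1.56 and -1.39, SE 0.25 each). CXCL8 and LIF passed the filter on dim signals through the SW13+BRG1 arrays, the group in which they were then called higher. CXCL8 averaged 17.4 in SW13+vector cells after UV and 7.44 without UV, and LIF 18.4 and 10.1, all below the array medians. The sizes of their differences between the lines thus rest on dim signals. With 16 added before log2 they were 2.10 and 1.22 for CXCL8 and 1.40 and 1.99 for LIF. In SW13+BRG1 cells the UV calls of CXCL8 and FOS were lost under the hybridization control scaling. That of CXCL8 was also lost without UV array 1 or 2 or mock array 1 or 2 of this line (1.43 to 1.80), and that of FOS without UV array 3 or mock array 1 (0.98 to 1.00).

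Genes with the most similar pattern were sought by Pearson correlation of log2 signals over the 12 arrays, among genes whose mean signal was at or above the 75th percentile of those tested. The points share their libraries and the 4 groups, so these values only describe likeness. PNRC1 was most like DHX32 (r = 0.910) and SPDL1 (0.896), with rank correlations of 0.483 and 0.517, as its pattern rests on the 3 bright arrays. TOB1 was most like MRPL30 (0.974) and TMEM126A (0.967), and TOB2 like SS18L2 (0.871) and MRFAP1L1 (0.826). BTG1 was most like FAM229B (0.991) and CCNG1 (0.990), and BTG3 like SLC37A4 (0.914) and RRM2 (0.911). ZFP36 was most like INTS12 (0.921) and SMARCAD1 (0.876), ZFP36L1 like ITGA6 (0.985) and RAB8B (0.979), and ZFP36L2 like ARMCX4 (0.989) and PPP2CB (0.975). Among the 8 themselves the values over 12 arrays ran widest from -0.953 for BTG1 with ZFP36L2 to 0.847 for TOB2 with PNRC1.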

How the data were processed

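The deposited series table holds 1 signal intensity per probe set and array, on a linear scale, for 12 Affymetrix U133 Plus 2.0 arrays and 54675 probe sets. The authors extracted total RNA, hybridized it, summarized probe sets with MAS at its defaults, in a version that no source used here gives, and set each array to a target mean intensity of 125.

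Log2 intensities entered the fit without other normalization. Probe sets that reached the array's median on at least 3 arrays were tested (32622, after 62 control probe sets were left out) with limma (version 3.58.1, R version 4.3.3). One mean per group was fitted over all 12 arrays with a mean-dependent variance prior, and p was adjusted by the Benjamini-Hochberg method over all tested probe sets. The fit was tested on simulated data of 32622 probe sets with independent noise, where it called 42 of 100 changes of log2 size 1.5 and 57 of 100 of size 2. No other probe set was changed there, whereas 183 were called higher and 1895 lower after UV in SW13+BRG1 cells. The simulated shares are therefore not those of the fit reported. A change of such a size can thus go without a call. The deposited labels number the experiments 1 to 3 in each group. The annotation gives 41097 probe sets a single gene, 1801 several genes and 11777 no gene, and the brightest stood for a gene. Deviations of same-numbered arrays from their group means correlated above 0.1 in all 3 pairs only between UV and mock in SW13+vector cells (0.102 to 0.275), and the labels do not say what the numbers share. The number of arrays limits the precision.

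The members and the lists were chosen with earlier results of these data known. Named are the 8 members, SMARCA4, up to 4 called genes per decay list and comparison with the largest change, and the 2 genes most like each member. Alternatives were quantile normalization, a common median, scaling to 18 hybridization controls, an offset of 16 before log2, dim signals raised to the 40th percentile, other filters, adjustment over genes, no trend, the methods' t-test (also with Benjamini-Hochberg adjustment), fits on the compared arrays, no fold limit, the replicate block, the mean over probe sets, leaving out each array, and leaving out experiment 3, which was added after the data had been seen.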

Additional observations from a re-analysis of the deposited data

Results flagged for a closer look

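The UV effect on PNRC1 (209034_at) differed between the lines by -3.35 on the log2 scale, SW13+BRG1 minus SW13+vector. The difference itself was tested as an interaction in limma and was called (SE 0.35). PNRC1 was lower on all 3 UV-treated SW13+BRG1 arrays than on the mock-treated ones, and higher on all 3 UV-treated SW13+vector arrays than on their mock-treated ones. PNRC1 was chosen with results of these arrays known, so the value describes the gene.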

How the results depend on the processing

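Over the alternatives, 205 counts of called member probe sets kept within 1.5 times of their value and 47 moved. Of the member values 1029 kept sign and side of the threshold, 28 changed sign, 15 gained and 11 lost a call. PNRC1 kept its calls under the alternatives run, except the UV change in SW13+BRG1 cells under the methods' t-test with adjustment. That test, the compared arrays alone and no fold limit were not run for the interaction. The counts that follow are of member probe sets, so a gene can count more than once. The UV comparison in SW13+BRG1 cells had 1 called higher in the fit reported. The count was 2 with quantile normalization, the methods' t-test without adjustment, the compared arrays alone or no fold limit. With log2 of the signal plus 16, the floor or experiment 3 left out it was 3. Scaling to hybridization controls gave 0 higher and 4 lower there. No fold limit gave 2 lower there and 5 higher in SW13+vector cells. The methods' t-test with adjustment gave 0 and 0 in SW13+BRG1 cells, 0 higher in SW13+vector cells, 1 higher and 0 lower between the lines after UV, and 0 lower without UV. The count lower between the lines after UV was 1, against 2, with the signal plus 16, the strict filter, the compared arrays alone and experiment 3 left out. That without UV was 1, against 2, with no filter, the strict filter, no trend, the methods' t-test without adjustment, the compared arrays alone and experiment 3 left out. With experiment 3 left out 2 were lower after UV in SW13+BRG1 cells and 3 were lower in the interaction.

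The replicate block gave 4 probe sets higher and 2 lower after UV in SW13+BRG1 cells, against 1 and 1. The calls gained higher there were 228834_at of TOB1 (1.18, SE 0.28), 213277_at of ZFP36L1 (2.32, SE 0.47) and 1556213_a_at of BTG3 (1.13, SE 0.37). ZFP36 was called lower there (-1.26, SE 0.42). In the interaction the block gave 2 lower, with TOB1 called (-0.75, SE 0.13). After UV in SW13+vector cells the block gave 4 higher, against 3. Deviations of same-numbered arrays correlated at 0.0152 to 0.293 and those of other pairs at -0.223 to 0.137. Of the 12 arrays 9 correlated best with a same-numbered one. Experiment 3 stood apart: its same-numbered pairs correlated at 0.179 to 0.293, and its pairs with experiments 1 and 2 at -0.223 to -0.0562. Arrays of experiment 1 correlated with those of experiment 2 at 0.0396 to 0.137, and same-numbered pairs of experiments 1 and 2 at 0.0152 to 0.141. At least 1 same-numbered pair stayed under 0.1 in each comparison other than UV in SW13+vector cells, so the block remained an alternative there. The fit reported has no block for UV in SW13+vector cells either.

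Leaving out each array gave 0 to 3 probe sets higher and 1 to 2 lower after UV in SW13+BRG1 cells. Between the lines it gave 1 to 2 lower, both after UV and without UV. Values near 0 changed sign. BTG3 ran -0.058 to 0.30 after UV in SW13+BRG1 cells, -0.35 to 0.0093 between the lines without UV and -0.30 to 0.058 in the interaction, TOB1 -0.17 to 0.18 between the lines after UV, and ZFP36L2 -0.035 to 0.36 in the interaction. TOB1 between the lines after UV was 0.0013 with quantile normalization, 0.0066 with a common median and 0.013 with experiment 3 left out, where the BTG3 interaction was 0.10. BTG3 after UV in SW13+BRG1 cells was -0.13 with quantile normalization. With hybridization controls it was -0.31, and -0.015 in SW13+vector cells, where TOB2 was -0.023, and the ZFP36L2 interaction was -0.025. The mean over probe sets gave TOB2 0.23 and -0.10 after UV in SW13+BRG1 and SW13+vector cells, 0.25 and -0.079 between the lines after UV and without UV, and 0.33 in the interaction. It gave ZFP36L1 0.26 and 1.02 after UV, and BTG3 0.0032 in the interaction. The causes were not tested. Of the 45 called values of list genes, run after the data had been seen, 0 changed sign and 7 kept their call throughout. Of 1250 such values 92 lost the call.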
